A study of Mus musculus with 72 samples.

Results

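The comparison described here is between livers of wild-type (WT) mice raised germ free (GF) and livers of WT mice raised specific-pathogen free (SPF), taken at zeitgeber time 10 (ZT10), late in the light phase. Its members were chosen by their labels, and they are 6 of the 72 RNA-seq libraries of the study, 3 GF WT and 3 SPF WT. The study crossed microbial status with genotype in male mice labelled C57BL/6 (C57BL/6J in the study's methods), WT or lacking Bmal1 in the liver (LKO), and collected liver at 6 ZT. WT here means Bmal1 fl/fl without Cre, so both groups compared carried the floxed allele of the clock gene Bmal1 (Arntl in the count table) in an intact state, whereas LKO mice carried Bmal1 fl/fl with Albumin-Cre, which is driven in hepatocytes. GF mice lived in flexible film isolators, and SPF mice carried a conventional microbiota. Both groups ate autoclaved chow ad libitum on a 12:12 light/dark cycle. By the study's methods, mice were 10-14 weeks old when moved to individual housing. Stool was collected after 14 days of this housing, and livers were taken after 3 weeks. The methods give the age at liver collection only through these intervals.

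The liver receives blood from the gut through the portal vein, and with it nutrients, bile acids returning from the ileum, and compounds made by bacteria. Bacteria deconjugate and dehydroxylate bile acids, and both primary and secondary bile acids are ligands of some hepatic nuclear receptors. Hepatic nuclear receptors set the expression of the enzymes that make bile acids from cholesterol. Nuclear receptors, with PXR (Nr1i2) and CAR (Nr1i3) among them, also set that of the cytochrome P450 enzymes that oxidize drugs and sterols. The liver also makes cholesterol and fatty acid, stores glycogen and secretes most plasma proteins, and many of these functions follow the light/dark and feeding cycle.

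Each value below is a level in CPM (a gene's share of the counted reads, times 1e+06), scaled with TMM factors over the 12 libraries of ZT10, and each difference is a log2 fold change, GF minus SPF. The 6 libraries held 18383805 to 19979329 counts in genes. Albumin, which marks hepatocytes, took 7.75% to 10.1% of each, and mitochondrial genes 5.64% to 8.08%. In a principal component analysis of the 500 most variable genes, the component holding 54% of the variance separated the GF from the SPF libraries, and on the next one (18.8%) SPF replicate 1 stood at 11.4 against -5.42 and -5.65 for the other SPF libraries. Arntl was low in all 6 (0.331 to 1.82 CPM). It was higher in the LKO libraries of the same ZT (7.42 to 9.57 CPM), and since a count over the whole gene includes exons outside the floxed part, it does not check the knockout. No ZT10 library went against its label in Cyp3a11, the gene with the smallest adjusted p. At other ZT, the library labelled GF WT ZT6 replicate 3 held 5782 CPM of Cyp3a11, where the other GF libraries of that ZT held 560.2 and 707, and the library labelled SPF WT ZT14 replicate 3 held 355 CPM, where the other SPF libraries held 4789 and 5228. Values at ZT6 and ZT14 are therefore given with and without these libraries, a choice made after the data were seen. The choice used Cyp3a11 itself, so Cyp3a11 values without these libraries are no test of that gene.

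Of 13442 genes with enough counts to be tested, 388 differed between GF and SPF WT liver at ZT10 at an adjusted p under 0.05 (edgeR quasi-likelihood test, Benjamini-Hochberg adjustment over all genes tested), a share of 2.89%. GF levels were higher for 202 of them (1.5%) and lower for 186 (1.38%). With a log2 fold change of at least 1 also required, 73 genes were higher (0.543%) and 97 lower (0.722%). The 3 GF and 3 SPF values did not overlap for 385 of the 388, which compares with 21.6% of all genes tested. The 388 were called from these same values, so the lack of overlap adds no separate support. DESeq2 on the same libraries called 722 genes, among them 384 of the 388. Before adjustment, the edgeR p was under 0.05 for 2510 of the 13442 genes. The count rested on single libraries: it was 91 without GF replicate 2, 117 without GF replicate 3, 228 without SPF replicate 2 and 257 without GF replicate 1, and the closing section gives the other settings. In a bulk sample, fewer cells of a type and less RNA per cell cannot be told apart.

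**Figure D1:**
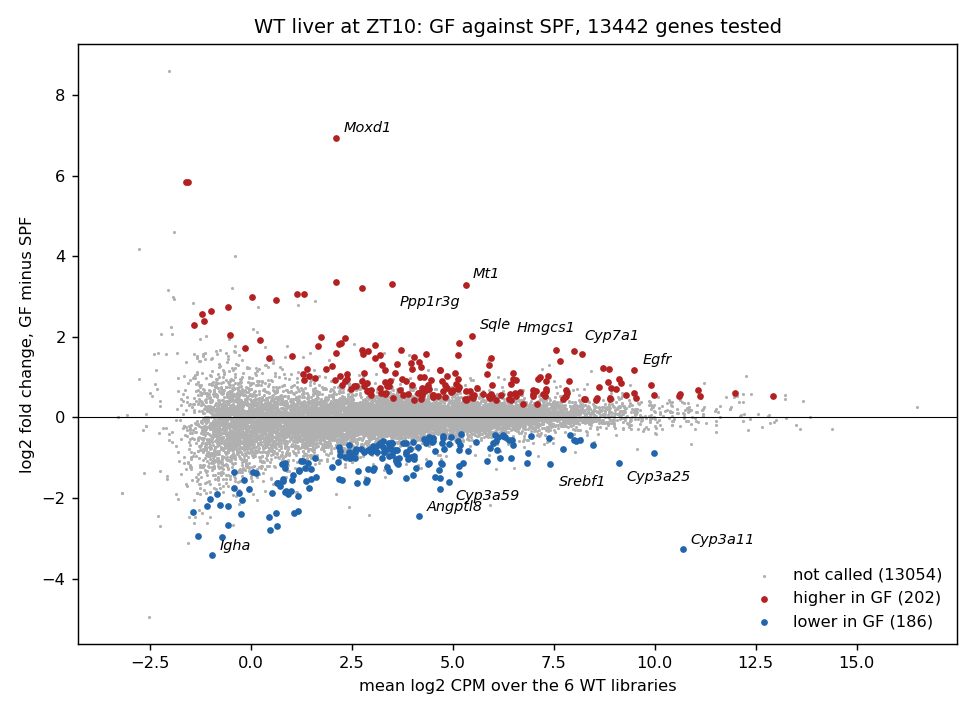
Each point is 1 of 13442 genes, with the mean log2 CPM over the 6 WT libraries of ZT10 on the x axis and the log2 fold change (GF minus SPF) on the y axis; red and blue points are the 202 genes higher and the 186 genes lower in GF at an adjusted p under 0.05. Cyp3a11 lies alone among highly expressed genes at -3.27, and Moxd1 has the largest increase among the genes labelled, at 6.94.

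Cyp3a11, the main drug-oxidizing CYP3A enzyme of mouse liver and a classical target of PXR, was 9.61-fold lower in GF than in SPF liver. Of 32 members of the list of drug-metabolizing P450s and their receptors that were tested, 4 fell and 0 rose (12.5% called against 2.89% of all genes), with a median log2 fold change of -0.09 against -0.01 over all genes. The 4 were Cyp3a11, Cyp3a25, Cyp3a59 and the receptor gene Nr1i3.

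Cyp3a11 (ENSMUSG00000056035, GRCm38 chr5:145854426-145879964) stood at 6319, 4681 and 4567 CPM in SPF replicates 1 to 3 and at 519, 524 and 577 CPM in GF replicates 1 to 3. Every GF library was far below every SPF library, and the GF values lay close together (539.8 ± 32.3 CPM, SD, n = 3). The difference was -3.27 ± 0.18 (log2, SE) with an adjusted p of 3.345e-07, the smallest of all genes. Per exon length, Cyp3a11 went from the highest of the 4 tested Cyp3a genes in SPF liver (1019 RPKM, against 394 for Cyp3a25) to below Cyp3a25 in GF liver (106 against 181 RPKM).

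Cyp3a25 and Cyp3a59, neighbours of Cyp3a11 in the Cyp3a cluster of chromosome 5, fell by less. Cyp3a25 (chr5:145977194-146009618) stood at 932, 851 and 679 CPM in SPF liver and at 338, 403 and 391 CPM in GF liver, a difference of -1.12 ± 0.14 (adjusted p = 0.001642). Cyp3a59 (chr5:146079257-146113287) stood at 64.97, 49.1 and 43.9 CPM in SPF liver and at 14.2, 20.6 and 17.1 CPM in GF liver, a difference of -1.61 ± 0.19 (adjusted p = 0.001542). Neither gene overlapped between groups. Cyp3a genes are close in sequence, and reads that aligned to several places were not counted, so the division of reads among them is uncertain. Cyp3a13, outside the rule for named genes and chosen after its value was seen, was the fourth member tested and did not pass the test (-0.11, adjusted p = 0.8383).

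Of the receptors that control these enzymes, CAR was the one whose gene was called. Nr1i3, which encodes CAR, stood at 81.5, 80.3 and 76.7 CPM in SPF liver and at 46.7, 46.2 and 47.2 CPM in GF liver, without overlap (-0.77 ± 0.13, adjusted p = 0.01143). Nr1i2, which encodes PXR, did not pass the test (-0.38, adjusted p = 0.1373). Neither did Cyp2b10, the usual reporter of CAR activity, whose SPF values spread from 7.57 to 38.5 CPM (-1.30, adjusted p = 0.2972), nor Cyp2c29 (-0.14, adjusted p = 0.633) and Cyp1a2 (0.23, adjusted p = 0.3309). The calls of the 3 Cyp3a genes held with each WT library left out in turn. That of Nr1i3 was lost without GF replicate 2.

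Bile acid synthesis was represented by a single call in the main fit. Cyp7a1 (chr4:6265612-6275633), the rate-limiting enzyme of the classical pathway from cholesterol to bile acids, stood at 175, 122 and 147 CPM in SPF liver and at 308, 539 and 540.1 CPM in GF liver. All 3 GF libraries were above all SPF libraries, with GF replicate 1 the lowest of them (1.65 ± 0.29, 3.13-fold, adjusted p = 0.01145). Of 14 tested genes of bile acid synthesis it was the only one called (7.14%, against 2.89% of all genes). DESeq2 called 3 of the list, as did edgeR without a filter on low counts or without GF replicate 1. Without SPF replicate 2 edgeR called 2. Before adjustment, p was under 0.05 for 6 of the 14 and for 2510 of all 13442 genes. Cyp8b1, the 12-alpha-hydroxylase that commits sterol to cholic acid, had a difference of 1.29 and an adjusted p of 0.06808, and its groups overlapped. It was called in 4 of the 11 alternative settings given in the closing section. Cyp27a1, which opens the alternative pathway, did not pass the test (0.28, adjusted p = 0.2097).

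None of 17 tested genes of bile acid sensing and transport was called by edgeR. DESeq2 called 1, and 1 had an unadjusted p under 0.05, as had 2510 of all 13442 genes. The bile acid receptor FXR (Nr1h4) had a difference of 0.08 and its target Nr0b2, the repressor SHP, one of -0.09. The uptake transporter Slc10a1 was at 0.36 (adjusted p = 0.09244).

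Genes of cholesterol synthesis were higher in GF liver almost throughout. Of 27 members tested, 26 had a positive difference, 12 rose and 0 fell (44.4% called higher against 1.5% of all genes), and the median difference was 0.94 against -0.01 over all genes. Among the 12 were Srebf2 and Scap, which encode the sterol-regulated transcription factor SREBP2 and the escort protein that carries it to its activating proteases. The enzyme genes Hmgcs1, Idi1, Sqle, Cyp51, Msmo1, Tm7sf2, Nsdhl, Ebp and Dhcr7, whose products act in cholesterol synthesis, were also among the 12. Msmo1 and Dhcr7 fall outside the rule for named genes.

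Sqle (chr15:59315077-59331192), which encodes squalene epoxidase, a rate-limiting oxygenation step, stood at 11.01, 22.6 and 37.4 CPM in SPF liver and at 93.9, 88.0 and 106 CPM in GF liver. The SPF values spread more than 3-fold and still lay below all GF values (2.02 ± 0.41, adjusted p = 0.02152). Hmgcs1, the cytosolic HMG-CoA synthase, stood at 59.6, 108 and 169 CPM in SPF liver and at 245, 380 and 459 CPM in GF liver, again without overlap (1.68 ± 0.40, adjusted p = 0.03904).

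Srebf2 differed by less, from 20.7, 32.8 and 29.2 CPM in SPF liver to 37.9, 42.4 and 55.4 CPM in GF liver (0.71 ± 0.18, adjusted p = 0.04976). Among genes of sterol feedback and uptake, Insig2 had the only negative difference of the list (-0.72, adjusted p = 0.08563), and Insig1 (0.17) did not pass the test.

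The number of cholesterol genes called depended on single libraries. It was 1 without GF replicate 2 or GF replicate 3, 4 without SPF replicate 1 or SPF replicate 2, 10 without GF replicate 1 and 16 without SPF replicate 3, against 12 with all libraries. DESeq2 called 18. For Sqle, Hmgcs1 and Srebf2, SPF replicate 1 was the lowest SPF library.

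The promoter of Hmgcs1 is shown because it is the one promoter of the list with an exact match to the sterol response element letters TCACNCCAC on either strand within 250 bases upstream of the start. RefSeq promoters (GRCm38.p6) were found for 19 of the 27 members, among them 10 of the 12 called. Of all 32851 promoters of the same length, 346 (1.05%) held the letters. The stretch below is chr13:119690171-119690290 on the plus strand, with the match, which begins 137 bases upstream of the start, in capitals.
Hmgcs1: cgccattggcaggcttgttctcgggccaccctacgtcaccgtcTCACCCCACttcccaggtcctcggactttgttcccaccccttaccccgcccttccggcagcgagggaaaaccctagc
A match describes these letters only, and a promoter without one may be bound through other sequences.

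**Figure D2:**
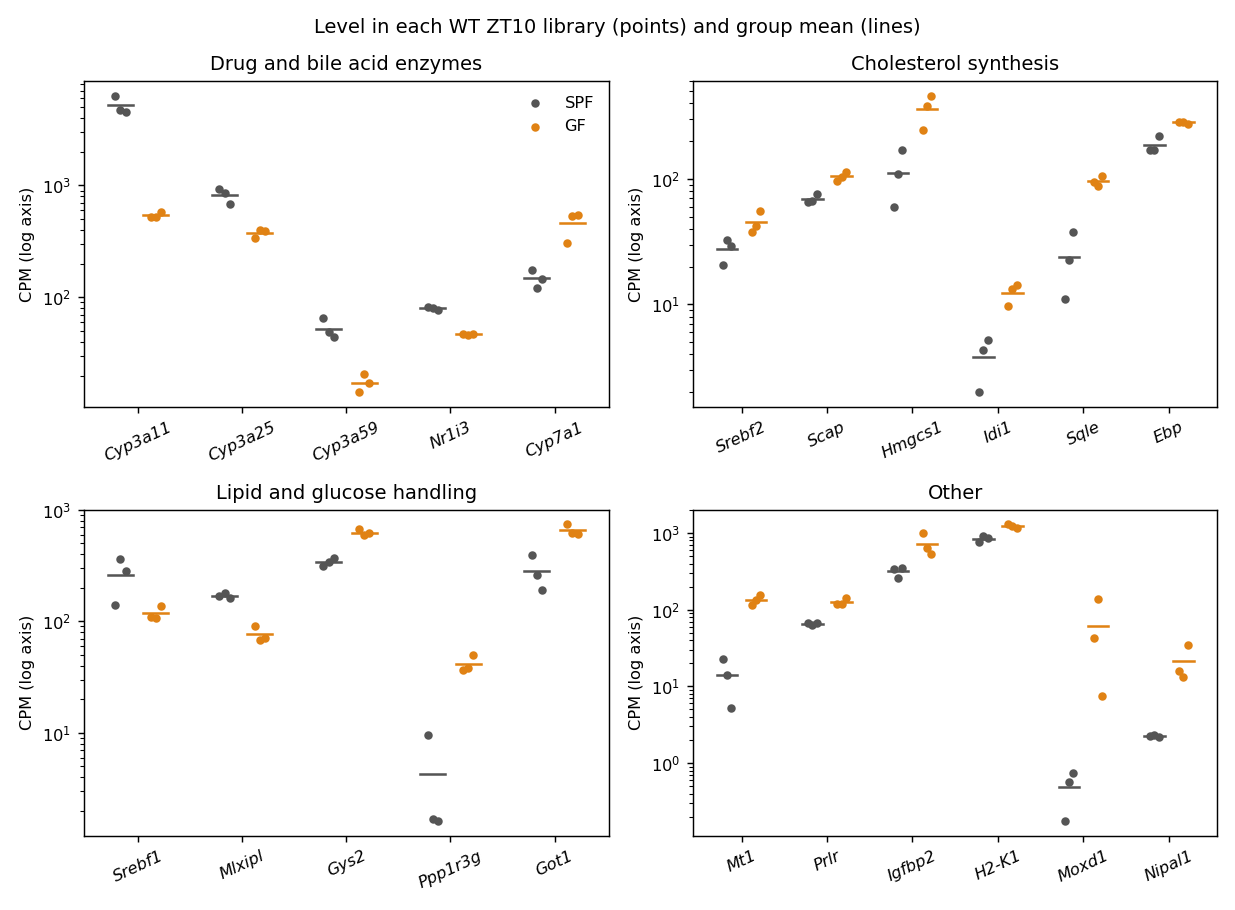
Each point is the CPM of a gene in 1 of the 3 SPF (grey) or 3 GF (orange) WT libraries of ZT10, on a log axis, and each line is the group mean. Cyp3a11 lies at 4567 CPM or more in SPF and at 577 CPM or less in GF liver, and the 6 cholesterol genes shown lie higher in every GF library than in every SPF library.

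Genes of fatty acid synthesis and storage moved in both directions. Of 37 tested, 5 rose and 4 fell (24.3% called against 2.89% of all genes), and the median was 0.09. The genes that fell were Srebf1 and Mlxipl, which encode the lipogenic transcription factors SREBP1 and ChREBP, with Agpat2, an acyltransferase of triglyceride synthesis, and Angptl8, a secreted inhibitor of lipoprotein lipase that is induced by feeding. The genes that rose were the desaturases Fads1 and Fads2, the lipases Pnpla2 and Lpl, and Angptl4, another lipoprotein lipase inhibitor.

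Srebf1 stood at 141, 360 and 284 CPM in SPF liver and at 109, 107 and 138 CPM in GF liver. SPF replicate 1 lay just above the highest GF library (-1.15 ± 0.27, adjusted p = 0.03914). Mlxipl was separated more clearly, at 167, 181 and 161 CPM in SPF liver and 91.3, 67.9 and 71.6 CPM in GF liver (-1.14 ± 0.26, adjusted p = 0.03271).

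Angptl8, with Lpl outside the rule for named genes, was called although its groups overlapped. SPF replicates 2 and 3 held 67.97 and 67.1 CPM, and SPF replicate 1 held 11.01 CPM, within the GF range of 7.09 to 11.1 CPM (-2.45, adjusted p = 0.03996). Fads1 (0.74, adjusted p = 0.0327) and Fads2 (0.79, adjusted p = 0.03231) were higher in every GF library. The fatty acid synthase gene Fasn (-0.21, adjusted p = 0.8322) and the desaturase gene Scd1 (0.58, adjusted p = 0.4476) did not pass the test. The list's count fell to 0 without GF replicate 3 and to between 2 and 4 without any other WT library, so that no call of this list held with every library left out in turn.

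Oxidation of fatty acid gave no call. Of 51 tested genes of fatty acid oxidation and PPARA targets, edgeR called 0, against 2.89% of all genes, and DESeq2 called 2. The unadjusted p was under 0.05 for 10 of the 51 and for 2510 of all 13442 genes. Without a filter on low counts edgeR called 8. Cpt1a, which controls fatty acid entry into mitochondria, stood closest to the threshold (0.60, adjusted p = 0.05006). The 8 genes of ketone body metabolism gave 0 calls by edgeR and by DESeq2 and 0 with an unadjusted p under 0.05.

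Genes of glucose and glycogen handling were called in opposite directions. Of 32 tested genes of glucose uptake, glycolysis and glycogen, 3 rose (Gys2, Ppp1r3g and Ugp2) and 2 fell (Ppp1r3b among them). The share called was 15.6% against 2.89% of all genes, and the median was 0.06. Gys2 (chr6:142422613-142473109), the liver glycogen synthase, stood at 314, 339 and 369 CPM in SPF liver and at 667, 591 and 615 CPM in GF liver. Its groups were far apart and tight (0.87 ± 0.10, 1.83-fold, adjusted p = 0.001542), and its call held with each WT library left out.

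Ppp1r3g, a glycogen-targeting subunit of protein phosphatase 1, stood at 9.61, 1.68 and 1.62 CPM in SPF liver and at 36.95, 38.2 and 49.7 CPM in GF liver. SPF replicate 1 again differed from the other SPF libraries and still lay well below the GF range (3.31 ± 0.66, adjusted p = 0.02006). Ugp2, which makes UDP-glucose, was higher by 0.48 (adjusted p = 0.034).

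Ppp1r3b, another targeting subunit of the phosphatase, was lower by a log2 fold change of -0.56 (adjusted p = 0.03014). Without single libraries the list's count ranged from 1 (GF replicate 2) to 4 (SPF replicate 1), and was 2 without SPF replicate 2, SPF replicate 3 or GF replicate 3.

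Among 28 tested genes of gluconeogenesis, 2 rose and 1 fell (10.7% called, against 2.89% of all genes). Got1, the cytosolic aspartate aminotransferase, stood at 391, 262 and 192 CPM in SPF liver and at 739, 623 and 603 CPM in GF liver (1.22 ± 0.23, adjusted p = 0.015), without overlap. The transcription factor gene Cebpb rose by 0.95 (adjusted p = 0.00701), and Gpd1, glycerol-3-phosphate dehydrogenase, fell by 0.59 (adjusted p = 0.03031). The enzymes usually taken to set the rate did not pass the test, with Pck1 at 0.52 (adjusted p = 0.1919) and G6pc at 0.21 (adjusted p = 0.7866). Of 56 genes of amino acid catabolism and the urea cycle, 3 rose and 0 fell (5.36% called, against 2.89% of all genes). Among the 3 were Got1 and the betaine-homocysteine methyltransferase gene Bhmt (0.87, adjusted p = 0.03804). The calls of Got1 and Cebpb held without any 1 WT library, and those of Gpd1 and Bhmt were each lost without any 1 of 4 of the 6 libraries.

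**Figure D3:**
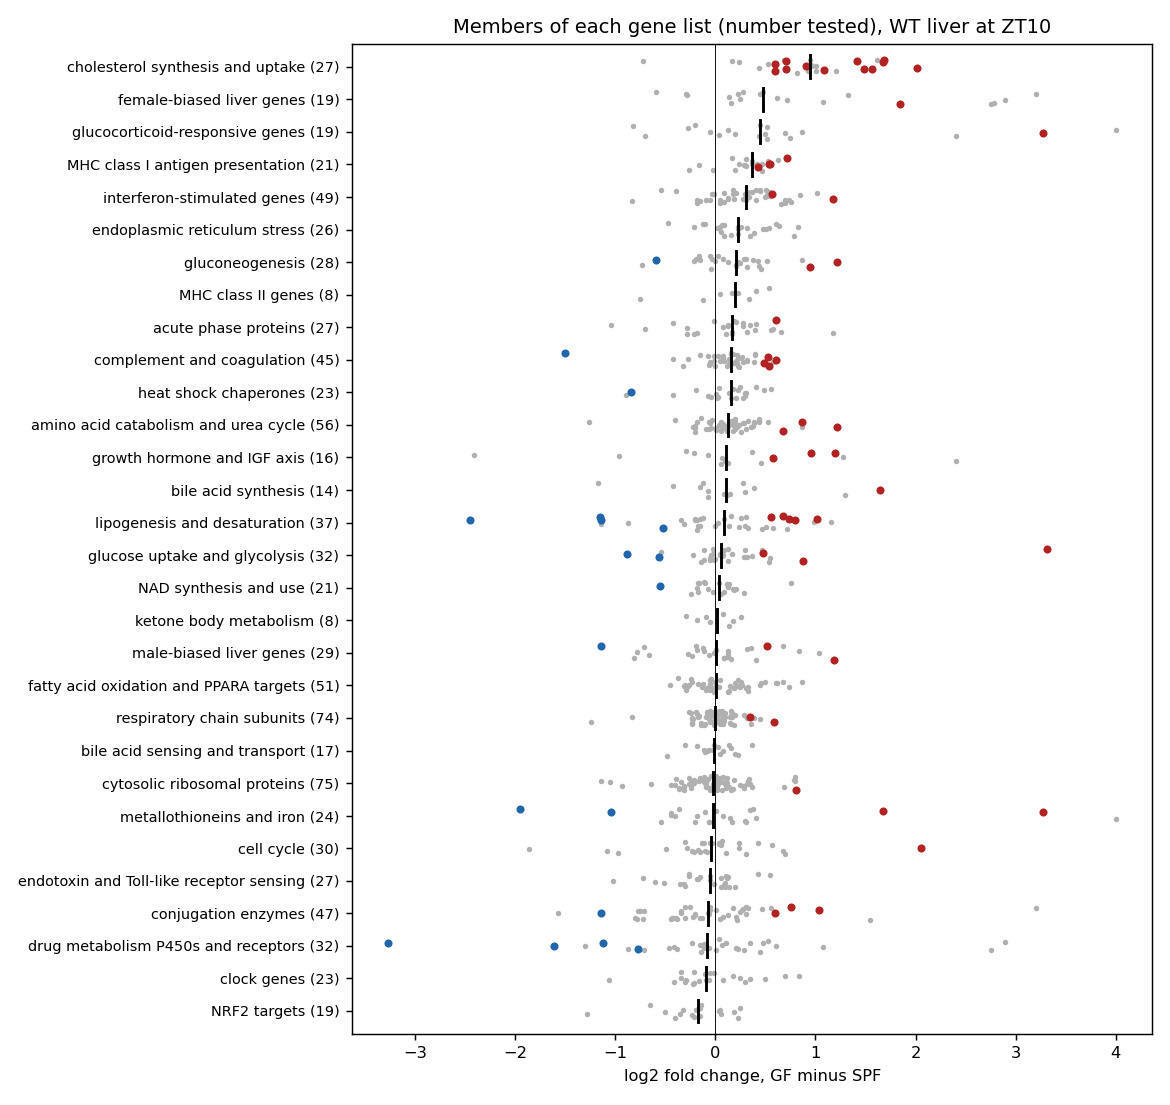
Each row is a gene list with the number of its members tested, each point the log2 fold change (GF minus SPF) of a member in WT liver at ZT10, red where called higher, blue where called lower and grey where not called, and each black bar the list's median. The cholesterol list has its median at 0.94 and 12 members called higher, while the clock list has its median at -0.09 and none called.

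Metal-binding and iron genes held a large increase. Mt1 (chr8:94179082-94180327), a metallothionein, a small cysteine-rich protein that binds zinc and copper and is induced by metals and glucocorticoids, stood at 22.97, 13.9 and 5.17 CPM in SPF liver and at 117, 133 and 155 CPM in GF liver. All GF libraries were at least 117 CPM and all SPF libraries at most 22.97 CPM (3.28 ± 0.61, 9.69-fold, adjusted p = 0.01481), and the call held without any 1 WT library. Its neighbour Mt2 was counted at 0.0586, 0.327 and 0.0522 CPM in SPF liver and at 2.36, 2.32 and 3.06 CPM in GF liver, without overlap, and missed the threshold (4.003 ± 1.07, adjusted p = 0.06281). Mt1 and Mt2 are near-identical in part, so the split of reads between them is uncertain.

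Promoters of Mt1 and Mt2 are shown because Mt1 differed by 9.69-fold, and both held the letters TGCACNC. These letters, searched on both strands, were taken here for the core of the metal response element. Other forms of the core were not searched. The letters are common, in 3417 of 32851 promoters (10.4%). They were found in 4 of the 15 members of the metallothionein and iron list that had a RefSeq promoter. Each stretch is the 120 bases upstream of the start on the plus strand of GRCm38.p6 (Mt1, chr8:94178969-94179088, and Mt2, chr8:94172498-94172617), with the match in capitals, on the minus strand in Mt2.
Mt1: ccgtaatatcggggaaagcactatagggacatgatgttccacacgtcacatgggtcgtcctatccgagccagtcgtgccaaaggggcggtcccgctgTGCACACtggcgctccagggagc
Mt2: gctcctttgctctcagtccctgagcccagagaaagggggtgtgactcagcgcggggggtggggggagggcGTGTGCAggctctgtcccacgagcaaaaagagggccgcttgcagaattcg
The match begins 23 bases upstream of the start in Mt1 and 50 bases upstream in Mt2.

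Of the 24 members of the metallothionein and iron list tested, 2 rose and 2 fell (16.7% called, against 2.89% of all genes). The median was -0.03. Beside Mt1, the hepcidin copy Hamp2 rose (1.67, adjusted p = 0.02675). Slc30a10, which exports manganese, fell by 1.04 (adjusted p = 0.01932), and the ferritin light chain gene Ftl1 fell by 1.96 (adjusted p = 0.03904), on at most 4.34 CPM. Hamp2 and Ftl1 have near-identical copies in the genome, which makes their counts uncertain, and the iron exporter gene Slc40a1 did not pass the test (-0.44, adjusted p = 0.07999). The calls of Slc30a10, Hamp2 and Ftl1 were each lost without any 1 of at least 4 of the 6 WT libraries.

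Genes of the growth hormone, prolactin and IGF axis gave 3 increases and 0 decreases among 16 tested. The share called higher was 18.8% against 1.5% of all genes, and the median was 0.11. Prlr, the prolactin receptor, stood at 67.3, 62.2 and 66.6 CPM in SPF liver and at 117, 120.2 and 142 CPM in GF liver (0.95 ± 0.12, adjusted p = 0.001753). Igfbp2, an IGF-binding protein, stood at 344, 262 and 345 CPM in SPF liver and at 1014, 644 and 526 CPM in GF liver (1.198 ± 0.22, adjusted p = 0.01454). Neither gene overlapped between groups, and Igfbp4 was also higher (0.57, adjusted p = 0.01206).

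The calls of Prlr, Igfbp2 and Igfbp4 held without any 1 WT library. Igf1 itself had a difference of 0.09. The growth hormone targets Cish (-2.41, adjusted p = 0.06652) and Socs2 (1.28, adjusted p = 0.2792), both feedback inhibitors of the receptor's signal, had opposite signs, and neither passed the test. Igfbp1, the insulin-suppressed binding protein, was at 119, 17.01 and 8.78 CPM in SPF liver and at 336, 258 and 171 CPM in GF liver (2.41, adjusted p = 0.06875).

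Among genes that are known to differ between male and female liver, 2 of 29 male-biased genes rose (Egfr and Cyp4a12b, 6.9% against 1.5% of all genes) and 1 fell (Ugt2b38, 3.45% against 1.38%). The EGF receptor gene Egfr, from 402 to 570.0 CPM in SPF liver and from 905 to 1281 CPM in GF liver, did not overlap between groups (1.18, adjusted p = 0.03543). Of 19 female-biased genes tested, 16 had a positive difference, with a median of 0.47, and 1 rose (5.26%), Atp6v0d2, a subunit of the vacuolar proton pump (1.84, adjusted p = 0.009368). The call of Atp6v0d2 held without any 1 WT library, and the calls of Egfr and Cyp4a12b were each lost without any 1 of the 6. Ugt2b38 was lost without any library but GF replicate 3.

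Conjugation enzymes gave 3 increases and 1 decrease among 47 tested (8.51% called, against 2.89% of all genes). The glutathione transferase gene Gstm2 (1.03, adjusted p = 0.003531) and the phenol sulfotransferase gene Sult1a1 (0.76, adjusted p = 0.01291) rose and kept their calls without any 1 WT library. Gstm7 also rose (0.59, adjusted p = 0.0301), a call lost without any 1 of 5 of the 6 libraries. The glucuronosyltransferase gene Ugt2b38 fell by 1.15 (adjusted p = 0.04206). Gstm genes are near-identical in part, so their counts are uncertain.

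Of 21 tested genes of MHC class I antigen presentation, 18 had a positive difference, 4 rose and 0 fell (19% called higher against 1.5% of all genes). The median was 0.36. It was also positive at ZT2 (0.236), ZT14 (0.206), ZT18 (0.273) and ZT22 (0.167). At ZT6 (-0.186) and in LKO liver at ZT10 (-0.0891) it was negative. H2-K1, a classical class I heavy chain, stood at 762, 908 and 863 CPM in SPF liver and at 1292, 1234 and 1178 CPM in GF liver, without overlap (0.55 ± 0.10, 1.46-fold, adjusted p = 0.01654). The nonclassical H2-T23 rose by 0.72 (adjusted p = 0.007913), H2-D1 by 0.42 (adjusted p = 0.04337) and the peptide-loading factor gene Tapbp by 0.54 (adjusted p = 0.03791), while the class I light chain gene B2m did not pass the test (0.20, adjusted p = 0.471). Class I genes are close in sequence and their counts carry the same doubt as those of the Cyp3a genes. The call of H2-T23 held without any 1 WT library, and the list's count ranged from 1 without GF replicate 2 to 5 without SPF replicate 2, and was 2 without SPF replicate 1, SPF replicate 3 or GF replicate 1.

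Interferon-stimulated genes had a positive difference in 39 of 49 tested, with a median of 0.30, and 2 rose (4.08% against 1.5% of all genes). These were Usp18, a brake on interferon signalling (1.18, adjusted p = 0.01694), and Ifih1, which encodes the RNA sensor MDA5 (0.57, adjusted p = 0.02264). Both calls were lost without GF replicate 2 or SPF replicate 3, and that of Ifih1 also without GF replicate 3. Oasl2 was near the threshold (1.02, adjusted p = 0.05614). The median of the interferon list was positive at ZT2 (0.279), ZT18 (0.238) and ZT22 (0.141). It was negative at ZT6 (-0.477, and -0.313 without GF replicate 3) and in LKO liver at ZT10 (-0.117). At ZT14 it was -0.212, or 0.181 without SPF replicate 3. Class II genes (8 tested) gave 0 calls by edgeR and by DESeq2 and 0 with an unadjusted p under 0.05.

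Sensing of bacterial products gave no call. Of 27 tested genes of endotoxin and Toll-like receptor sensing, edgeR called 0, against 2.89% of all genes, and DESeq2 1. The unadjusted p was under 0.05 for 4 of them and for 2510 of all 13442 genes. Tlr4, the endotoxin receptor gene, stood at a mean of 3.06 CPM in SPF and 2.53 CPM in GF liver (adjusted p = 0.6845). Of 27 acute phase genes 1 rose (3.7%), the fibrinogen chain gene Fga (0.61, adjusted p = 0.03914), whose call was lost without any 1 of the 6 libraries. Among 45 genes of complement and coagulation, 4 rose (Fga, F10, F11 and Kng1) and 1 fell, C4a (11.1% called), but edgeR called 0 of these 45 without SPF replicate 1, GF replicate 2 or GF replicate 3.

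The molecular clock gave no call in the main fit. Of 23 clock genes tested, edgeR and DESeq2 each called 0, where edgeR called 2.89% of all genes. The unadjusted p was under 0.05 for 7 of the 23 and for 2510 of all 13442 genes. Without a filter on low counts, where edgeR called 1136 genes, 3 clock genes were among them. Arntl, whose protein is the activator of the loop together with that of Clock, had a difference of -1.06 (adjusted p = 0.1625) at levels under 1.82 CPM, and Clock had one of -0.30 (adjusted p = 0.2561). The repressors gave 0.50 for Per1 (adjusted p = 0.1295), -0.22 for Per2 (adjusted p = 0.5544) and 0.29 for Nr1d1 (adjusted p = 0.5224). The output factor Dbp was at 0.69 (adjusted p = 0.2168).

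The remaining lists held few calls, where 2.89% of all genes were called. Rplp2 (0.80) was the only one of 75 ribosomal protein genes to be called (1.33%), and Ndufa10 (0.35) and Cox8a (0.59) rose among 74 respiratory chain subunits (2.7%). Rbm3 (-0.85), a cold-inducible RNA-binding protein gene, fell among 23 heat shock and chaperone genes (4.35%). Aox1 (-0.55) fell among 21 genes of NAD synthesis and use (4.76%). Gadd45b (2.05) rose among 30 genes of the cell cycle (3.33%), at a mean of 1.25 CPM in GF liver. Mt1 was the only call among 19 glucocorticoid-responsive genes (5.26%). NRF2 targets (19 tested) and genes of endoplasmic reticulum stress (26 tested) gave 0 calls by edgeR and 1 and 0 by DESeq2. The unadjusted p was under 0.05 for 5 and 1 of them, and for 2510 of all 13442 genes. Of the genes named in this paragraph, Rplp2 and Mt1 kept their calls without any 1 WT library.

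The largest increases among genes with a mean of at least 2 CPM on the log scale (log2 of 1) and no overlap were led by Moxd1 (chr10:24223517-24302790), a monooxygenase-like gene. It was all but absent in SPF liver, at 0.176, 0.561 and 0.731 CPM, and stood at 42.9, 136 and 7.43 CPM in GF liver. The GF values spread widely, and all lay above the SPF values (6.94 ± 0.99, adjusted p = 0.003595). Nipal1, a magnesium transporter gene, was even at 2.29, 2.34 and 2.19 CPM in SPF liver and stood at 15.7, 13.2 and 34.7 CPM in GF liver (3.22 ± 0.32, adjusted p = 0.000475).

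Ppp1r3g, Mt1, Sqle and Atp6v0d2 were also among the 12. The others were Tff3 (3.06), which encodes a trefoil peptide of mucous epithelia, the transcription factor gene Cebpd (1.98), the small GTPase gene Arl4d (1.84), the long noncoding B930025P03Rik (2.00), the microRNA locus Gm23935 (3.37) and ENSMUSG00000095742 (3.06), which lies on an unplaced scaffold. Gm23935 was counted with ribosomal RNA when the libraries were checked, so the origin of its reads is uncertain. In LKO liver Gm23935 differed by -0.23 and ENSMUSG00000095742 by -0.42, and neither was called there.

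By the same rule on level and overlap, the largest decreases after Cyp3a11 were Gm42047 (-2.38), D930048N14Rik (-2.32), Ftl1 (-1.96), Phlda1 (-1.76), Extl1 (-1.76), Aatk (-1.64), the S6 kinase gene Rps6ka1 (-1.61), Cyp3a59, 6720427I07Rik (-1.58), Gm16559 (-1.56) and the epoxygenase gene Cyp2j9 (-1.56). Phlda1, which responds to growth factors and stress, stood at 41.7, 27.1 and 80.6 CPM in SPF liver and at 13.8, 15.1 and 15.03 CPM in GF liver. Rps6ka1 stood at 9.26, 14.4 and 14.5 CPM against 5.20, 3.75 and 3.52 CPM. Gm16559 is annotated as antisense, and the counts were made without strand, so its reads cannot be told apart from those of an overlapping gene. Rps6ka1, Cyp2j9 and D930048N14Rik kept their calls without any 1 WT library.

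Markers of other cells gave few differences. Of 12 lists of cell type markers, the summed levels of GF and SPF libraries overlapped in all but that of liver sinusoidal endothelial cells (208.8 to 233 CPM in GF against 241 to 255 CPM in SPF liver). Of the 7 endothelial markers, 4 had a positive and 3 a negative difference, the median was 0.02, and 0 were called. Among all genes tested, 21.6% did not overlap between groups. Hepatocyte markers summed to 132300 to 142600 CPM in GF and 99520 to 133100 CPM in SPF liver, and Kupffer cell markers to 199.7 to 336 and 268 to 355 CPM. The part of cell numbers in the differences above was not tested.

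Immunoglobulin genes were the marker genes called. Igha, the heavy chain of IgA, stood at 1.17, 1.68 and 0.836 CPM in SPF liver and at 0.161, 0.110 and 0.0567 CPM in GF liver, without overlap (-3.42 ± 0.62, adjusted p = 0.0133). Ighm, the heavy chain of IgM, was higher in GF liver (1.61 ± 0.34, adjusted p = 0.02707), at 1.70, 3.46 and 2.56 against 9.98, 3.58 and 10.3 CPM. The summed markers of B and plasma cells overlapped (8.20 to 14.9 CPM in SPF, 9.54 to 20.2 CPM in GF liver). The call of Igha was lost without GF replicate 2 or GF replicate 3, that of Ighm without SPF replicate 1, SPF replicate 3, GF replicate 1 or GF replicate 3, and that of Vil1 without SPF replicate 1, SPF replicate 3, GF replicate 1 or GF replicate 2. Vil1, on the intestinal list, was called higher (2.65, adjusted p = 0.02384) at no more than 1.45 CPM, while 4 of the 7 intestinal markers were at 0 in every library.

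To ask whether the difference between GF and SPF liver depended on the hepatic clock, the same contrast was set against that of LKO liver at ZT10, which shares no library with it. GF LKO and SPF LKO liver differed in 132 genes (0.982%), 70 higher (0.521%) and 62 lower (0.461%). Of the 388 genes, 350 (90.2%) had the same sign in LKO liver, which compares with 67.6% of all genes tested. Those called in both with the same sign numbered 49, which is 12.6% of the WT calls and 37.1% of the LKO calls.

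The test of the difference itself called 1 gene of 13442 (0.00744%), Cyp3a11, while DESeq2 called 20 (0.0735%) and 691 genes were under 0.05 before adjustment. Cyp3a11 in LKO liver stood at 6035, 5459 and 8109 CPM in SPF and at 119, 133 and 136 CPM in GF mice. The GF values of LKO liver were all below those of WT liver, and the SPF values overlapped with them. Its difference was -5.66 in LKO (adjusted p = 8.276e-10) and -3.27 in WT liver, so that the decrease was smaller in WT by 2.39 ± 0.23 (log2, SE, adjusted p = 0.0007465).

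Some genes called in WT were flat in LKO liver without passing the test of the difference. Gys2 stood at 110.3, 121 and 116 CPM in SPF LKO and at 101, 115 and 119.5 CPM in GF LKO liver, well under its WT levels (difference between genotypes 0.92 ± 0.15, adjusted p = 0.08129). H2-K1 differed by -0.06 in LKO liver (difference between genotypes 0.61 ± 0.15, adjusted p = 0.5042). DESeq2 called the difference for Gys2 and H2-K1, with adjusted p of 1.699e-06 and 0.01004. Moxd1 was high in LKO liver of both groups, at 40.6 to 126 CPM in SPF and 302 to 439 CPM in GF mice.

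**Figure D4:**
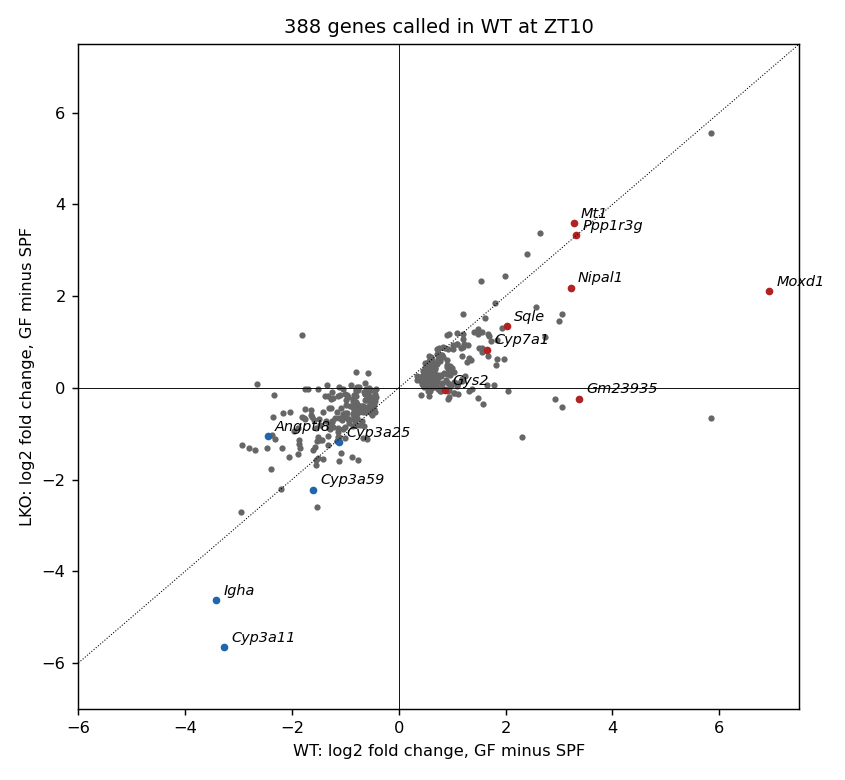
Each point is 1 of the 388 genes called in WT liver at ZT10, with its log2 fold change (GF minus SPF) in WT on the x axis and in LKO on the y axis; the dotted line marks equal values and coloured points carry gene names, red where higher and blue where lower in GF WT liver. Cyp3a11 lies below the line at -3.27 and -5.66, and Gys2 lies near 0 on the y axis.

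To ask what was particular to ZT10, the difference at ZT10 was set against its mean over the 5 other ZT, in other mice with their own SPF controls. No gene of 14090 was called by edgeR or by DESeq2, and 1464 had an unadjusted p under 0.05. Of the 388 genes, 222 (57.2%) had the same sign at all 5 other ZT, against 25.5% of all genes tested. Without the libraries that stood apart at ZT6 and ZT14, 246 had (63.4%, against 27.7%). The same sign was found for 88.5% of those tested at ZT2, 82.6% at ZT6, 91.4% at ZT14, 81.5% at ZT18 and 82.9% at ZT22, against 58.6% to 63.2% of all genes. Without those libraries the share was 88.1% at ZT6 (61.6% of all genes) and 97.4% at ZT14 (69.7%).

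The number of genes called differed between ZT, at 1379 at ZT2 (10.1%), 356 at ZT6 (2.62%), 10 at ZT14 (0.0751%), 131 at ZT18 (0.983%) and 70 at ZT22 (0.516%). Leaving out the ZT6 library that stood apart gave 514 (3.69%), and leaving out the ZT14 library gave 71 (0.524%). Genes called at ZT10 and at ZT2 with the same sign numbered 127, which is 32.7% of the ZT10 calls and 9.21% of the ZT2 calls. At ZT18 the shared calls numbered 39 (10.1% and 29.8%).

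Cyp3a11 had a lower mean in GF than in SPF liver at every ZT. On the scale set over the 36 WT libraries, the GF mean was 729 CPM at ZT2, 513 CPM at ZT10, 670.4 CPM at ZT18 and 810 CPM at ZT22, against SPF means of 4816, 4930, 6022 and 6752 CPM. The differences at ZT2, ZT18 and ZT22 were -2.72, -3.17 and -3.04, all called. With all libraries, the difference was -0.90 at ZT6 (adjusted p = 0.3899) and -2.46 at ZT14 (adjusted p = 0.1503). It was -2.80 at ZT6 without GF replicate 3 and -2.997 at ZT14 without SPF replicate 3. Those libraries were singled out by their Cyp3a11 level, so the larger decreases follow from that choice and are no test.

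Cholesterol genes were also higher at the other ZT. The list's median was 1.4 at ZT2 with 23 members called higher (6.13% of all genes were), 1.12 at ZT18 with 16 (0.713%), and 0.87 at ZT22 with 9 (0.346%). At ZT6 it was 0.43 with 2 called (1.54% of all genes), or 0.67 with 7 (2.04%) without GF replicate 3. At ZT14 it was 0.71 with 0 called (0.0225%), or 1.35 with 14 (0.251%) without SPF replicate 3. No member was called lower at any ZT, where the share of all genes called lower was 4.01% (ZT2), 1.08% (ZT6), 0.0526% (ZT14), 0.27% for ZT18 and 0.169% for ZT22. Without the libraries that stood apart, that share was 1.65% (ZT6) and 0.273% (ZT14). In LKO liver at ZT10 the median was 0.98, with 2 called higher (0.521% of all genes).

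Other members were less even over the day. Gys2 means in GF and SPF liver were 593 and 323 CPM at ZT10 and 503 and 288 CPM at ZT14, and 122 and 133 CPM at ZT2 and 134 and 120.3 CPM at ZT22. Its difference was 0.52 at ZT6 (adjusted p = 0.04486), a call lost without GF replicate 3 of that ZT (0.46, adjusted p = 0.06432). At ZT14 it was 0.80 (adjusted p = 0.2369), and 0.77 without SPF replicate 3 (adjusted p = 0.3344), and the test was not passed at ZT2, ZT18 and ZT22. Cyp7a1 was higher by 1.70 at ZT14 (adjusted p = 0.004531, and 1.54 with 0.005217 without SPF replicate 3) and differed by 0.08 at ZT22 (adjusted p = 0.9599).

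Mt1 differed by -0.16 at ZT2, where 1 SPF library held 184 CPM, and by 2.17 at ZT14 (adjusted p = 0.2236, and 2.52 with 0.2423 without SPF replicate 3). For Gys2, Cyp7a1 and Mt1 the test against the other ZT was not passed (adjusted p between 0.3207 for Gys2 and 0.7379 for Cyp7a1), so a difference particular to ZT10 was not shown.

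**Figure D5:**
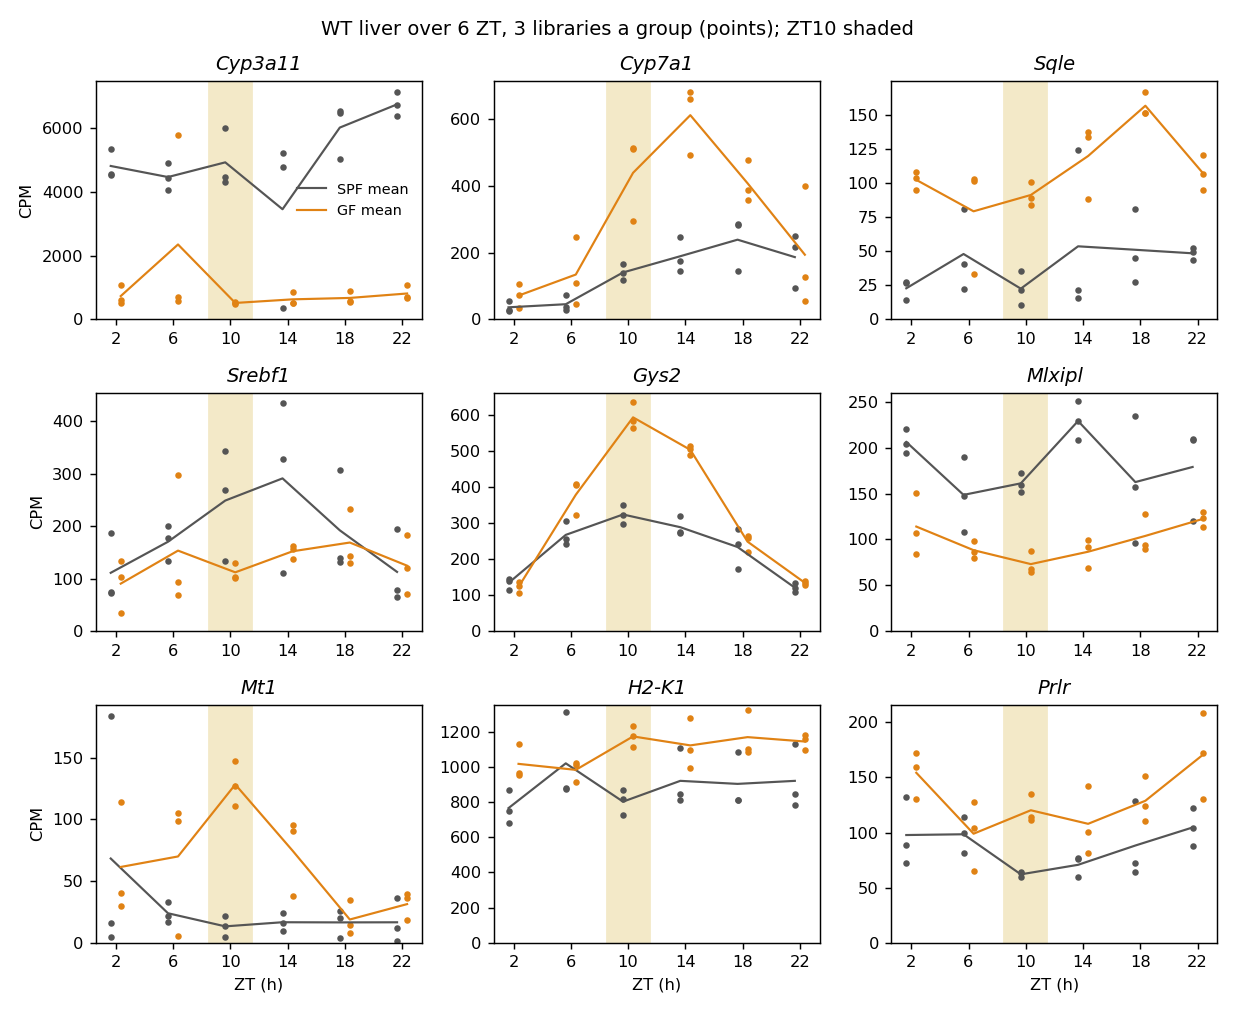
Each panel shows the CPM of a gene in WT liver over 6 ZT, with 3 SPF (grey) and 3 GF (orange) libraries as points, lines through the group means, and ZT10 shaded. Cyp3a11 is low in GF liver at all ZT apart from 1 library at ZT6, and Gys2 means are apart at ZT10 (593 and 323 CPM) and close at ZT2 and ZT22.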

How the data were processed

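Poly(A) RNA was sequenced in single-end 50-base reads in 72 libraries of male mouse liver, and the authors aligned the reads to mm10 with STAR 2.6.1b and counted them per gene over exons with featureCounts 2.0.0 (Ensembl annotation of GRCm38, strand not used, reads that aligned to several places left out). The deposited values are raw counts. Libraries were grouped by their labels, and 0 per-sample columns were left unused. Here edgeR 4.0.16 (R 4.3.3) was run on the 12 libraries of ZT10 with 4 group means, TMM factors, filterByExpr and the quasi-likelihood test, with Benjamini-Hochberg adjustment at 0.05. SE is the size of the log2 fold change divided by the square root of F. Other ZT were fitted on their own 12 libraries, and the test of ZT10 against the other ZT on 36 WT libraries. DESeq2 1.42.0, median-of-ratios (RLE) factors, no filter, the 6 WT libraries alone, a replicate block, a minimum log2 fold change of 1 and leaving out each library were the alternatives.

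Gene lists and cell type markers were written from textbook knowledge, and members and lists were chosen with earlier results of these data known. Genes were named by rule: the 12 largest increases and decreases among called genes whose groups did not overlap and whose log2 CPM averaged at least 1 over the 6 libraries (the log2 of the mean CPM would have replaced 1 of the increases and 6 of the decreases), up to 6 called members of each list, the key genes of each list, called genes of the difference tests (at most 10 each) and defining markers. Msmo1, Dhcr7, Lpl, Angptl8 and Cyp3a13, and the genes of the closing observations other than list members, were named after their values were seen. Symbols and positions came from GENCODE vM21 (GRCm38), and promoters from RefSeq GRCm38.p6. Some list members are counted in their lists and not reported here by name. The fits were tested on simulated counts. Nothing in the labels says that replicates were separate animals, although mice were housed singly, so p-values measure the spread between these samples.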

Additional observations from a re-analysis of the deposited data

Results flagged for a closer look

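Cyp3a11 was the gene whose difference between GF and SPF mice at ZT10 itself differed between genotypes, by a test of that difference. GF minus SPF was -3.27 (log2) in WT and -5.66 in LKO liver, a difference of 2.394 ± 0.23 (SE, adjusted p = 0.0007465). It was called with each of the 12 libraries left out in turn (2.21 to 2.56, adjusted p from 0.0002088 to 0.005768) and by DESeq2, and every GF LKO library (119 to 136 CPM) was below every GF WT library (519 to 577 CPM). Its part in other differences between the genotypes was not tested.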

How the results depend on the processing

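The 388 genes called between GF and SPF WT liver at ZT10 became 722 with DESeq2, 1136 without a filter on low counts, 213 with the 6 WT libraries alone and 170 with a log2 fold change of at least 1, and 91 to 392 with 1 of the 12 libraries left out. RLE factors gave 385. The share of higher calls was 52.1% and fell to 42.9% with the minimum fold change. The replicate numbers did not pair the samples (correlations of deviations 0.127, -0.126 and -0.00 for numbers 1 to 3), and the replicate block gave 271 calls, 240 of them shared with the 388. Genes whose difference depended on genotype numbered 1, against 20 with DESeq2, 2 with RLE factors, 208 without a filter, 1 with the replicate block and 1 to 5 with 1 library left out. Genes whose difference at ZT10 departed from the other ZT numbered 0 in all settings, including the replicate block within each ZT, except for 341 without a filter. ZT14 gave 71 calls in place of 10 when the SPF WT library of replicate 3 was left out. Why these counts moved was not tested.

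Of 91 called genes named in the text, 28 kept their call in all 11 alternatives (DESeq2, RLE, no filter, WT alone, block and 6 libraries left out), 49 lost it in at least 4, and none changed sign. Losses numbered 56 without GF replicate 2, 50 without GF replicate 3, 33 with WT alone and 25 with the block. Of 32 named genes that were not called, 7 changed sign with 1 library left out. Their ranges over the 6 WT libraries left out were -0.59 to 0.23 for Fasn, -0.0298 to 0.87 for Scd1, -0.0096 to 0.44 for Insig1, -0.15 to 0.48 for G6pc, -0.0487 to 0.18 for Nr1h4, -0.30 to 0.26 for Nr0b2 and -0.0267 to 0.18 for Igf1. With 3 libraries a group, a gene not called may still differ.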

Other observations

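Genes outside the lists, named after their values were seen, add to the description of WT liver at ZT10. Irs2, which encodes an insulin receptor substrate and is suppressed by feeding, stood at 13.2, 9.998 and 12.2 CPM in SPF liver and at 37.2, 41.5 and 26.4 CPM in GF liver, without overlap (1.57 ± 0.26, adjusted p = 0.008714). Cav1, the coat protein gene of caveolae, stood at 4.28, 4.58 and 4.81 CPM against 15.1, 21.3 and 11 CPM (1.79 ± 0.23, adjusted p = 0.001985). The receptor gene Fgfr1 (1.32, adjusted p = 0.003531) and the basement membrane collagen gene Col4a3 (2.99, adjusted p = 0.003295, on at most 2.84 CPM) were also higher. All 4 kept their calls without any 1 WT library.

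Of 15 tested carboxylesterase (Ces) genes, whose products hydrolyse drugs and lipid esters, 3 were called lower (20% against 1.38% of all genes) and 0 higher. The family, singled out after its values were seen, had a median of -0.10. Ces1d stood at 1401, 1412 and 1337 CPM in SPF liver and at 668, 739.9 and 862 CPM in GF liver (-0.87 ± 0.16, adjusted p = 0.01481). Ces2a fell from 402, 459.8 and 491 CPM to 297, 252 and 299 CPM (-0.67 ± 0.12, adjusted p = 0.0133). Neither gene overlapped between groups, and both calls were lost without GF replicate 2. Ces2b, at no more than 4.10 CPM, was also called lower (-1.90, adjusted p = 0.04547), a call lost without any 1 of the 6 libraries. Ces genes are close in sequence, so the division of reads among them is uncertain.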
